A study of Mus musculus with 12 samples.

Results

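The 51 genes described here are a list of cell-cycle genes that was chosen with earlier results of these data known. All of them were found among the 29542 genes to which the transcripts of this series were summed, and all were abundant enough to be tested. They comprise 17 genes of DNA replication (Mcm2 to Mcm7, Mcm10, Cdc6, Gins1, Gins2, Pcna, the polymerase genes Pola1, Pold1 and Pole, and the nucleotide-synthesis genes Rrm1, Rrm2 and Tyms), 4 other genes of S phase (Cdc45, Cdt1, Prim1 and Tk1), 7 cyclin, kinase and E2F genes (Ccne1, Ccne2, Ccna2, Cdk2, E2f1, E2f2 and E2f8) and 23 genes of mitosis. They were read in RNA of group 2 innate lymphoid cells (ILC2s), lymphocytes that make type 2 cytokines without an antigen receptor, sorted from the skin-draining lymph nodes of mixed bone marrow chimeras on the C57BL6 background. Recipients carrying CD45.1 had been irradiated with 950 cGy and given, in a 1 to 1 mixture, marrow of Rag1-/- donors (CD45.2) and of WT donors (CD90.1), so that ILC2s of both genotypes came from hosts that held both. The chimeras were kept for 8 or 20 weeks and, in all groups, received the cytokine IL-33 daily for 7 days before harvest, at 30 ng in each cheek and 240 ng in the peritoneum. The 12 libraries fall into 4 groups of 3, a WT and a knockout-labelled group for each time. There is no group without IL-33, the ages of the mice are not given, and the recipient's own surviving cells are not represented by a group.

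Whether a cell copies its DNA or divides is governed by transcription in waves. At the entry to S phase, E2F factors drive the genes of the helicase that opens DNA (the MCM ring with Cdc45 and the GINS proteins), of the clamp and polymerases that copy it, and of the enzymes that supply nucleotides. Later, in G2, another wave brings up the genes of mitosis, whose kinases, motors and kinetochore proteins condense, align and separate the chromosomes. IL-33 is known to drive ILC2s to divide, so both waves can be read in cells that have been given it.

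Because the 2 waves are known for different promoter sequences, the start regions of the members were searched for the letters of 3 known motif types on both strands, in the 250 bases before the start. Promoters from RefSeq (GRCm38.p6) were found for 41 of the 51 genes, as 43 entries. An E2F-type motif, TTTGGCGC or TTTCCCGC, was present in 5 of 14 promoter entries of replication genes (35.7%), in 0 of 19 of mitotic genes and in 1.3% of all 32817 entries. It was in 0 of 4 entries of the other S-phase genes (Cdc45, Cdt1, Prim1 and Tk1) and in 1 of 6 entries of the regulators (16.7%). The CHR-type motif TTTGAA, known from genes of G2 and mitosis, was present in 7 of 19 mitotic entries (36.8%), 1 of 14 replication entries (7.1%), 1 of 4 other S-phase entries (Cdc45), 2 of 6 regulator entries (33.3%) and 16.0% of all entries. CCAAT was common to both, at 17 of 19 mitotic (89.5%) and 11 of 14 replication entries (78.6%), against 33.8% of all entries. The 3 motifs were counted independently of each other. The 6 promoters below give 200 bases directly before the start of 3 replication and 3 mitotic genes. They were chosen because Mcm5 and Mcm3 fell with time while Mcm6, with more E2F-type letters, had the smallest time difference of the replication genes, and because Top2a, Kif11 and Mki67 are mitotic genes that hold the CHR-type letters. Letters of any of the searched motifs are in capitals, and no annotated exon overlaps these windows. The start used for Mcm5, Mcm6, Kif11 and Mki67 lies upstream of the gene start in GENCODE M21. For Mcm3 and Top2a the starts coincide.
Mcm5, chr8:75109309-75109508, plus strand: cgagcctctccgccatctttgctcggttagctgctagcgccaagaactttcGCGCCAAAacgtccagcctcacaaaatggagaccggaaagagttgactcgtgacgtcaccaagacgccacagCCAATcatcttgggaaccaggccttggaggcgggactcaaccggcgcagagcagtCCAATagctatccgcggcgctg
Mcm6, chr1:128359706-128359905, minus strand: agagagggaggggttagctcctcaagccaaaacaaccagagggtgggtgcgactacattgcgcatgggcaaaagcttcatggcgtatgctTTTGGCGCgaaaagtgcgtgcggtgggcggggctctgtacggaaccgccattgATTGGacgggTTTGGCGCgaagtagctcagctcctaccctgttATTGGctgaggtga
Mcm3, chr1:20820313-20820512, minus strand: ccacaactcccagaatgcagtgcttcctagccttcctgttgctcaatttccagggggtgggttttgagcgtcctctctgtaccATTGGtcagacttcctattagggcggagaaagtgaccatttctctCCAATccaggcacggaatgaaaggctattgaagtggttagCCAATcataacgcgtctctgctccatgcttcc
Top2a, chr11:99024190-99024389, minus strand: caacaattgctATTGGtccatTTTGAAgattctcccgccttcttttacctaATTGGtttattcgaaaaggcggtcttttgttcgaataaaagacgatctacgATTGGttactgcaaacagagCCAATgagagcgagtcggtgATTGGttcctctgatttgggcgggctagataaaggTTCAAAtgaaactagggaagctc
Kif11, chr19:37376182-37376381, plus strand: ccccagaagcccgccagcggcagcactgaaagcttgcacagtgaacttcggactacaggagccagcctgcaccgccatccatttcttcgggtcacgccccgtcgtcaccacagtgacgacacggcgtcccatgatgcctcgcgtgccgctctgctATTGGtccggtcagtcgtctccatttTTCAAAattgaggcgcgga
Mki67, chr7:135716380-135716579, minus strand: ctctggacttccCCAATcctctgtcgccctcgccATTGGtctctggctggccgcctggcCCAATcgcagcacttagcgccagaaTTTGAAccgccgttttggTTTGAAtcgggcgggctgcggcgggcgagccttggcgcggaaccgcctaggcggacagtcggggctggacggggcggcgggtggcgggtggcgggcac
In these windows Mcm5 and Mcm6 hold E2F-type letters and Mcm3 holds CCAAT letters alone, while the 3 mitotic promoters hold CHR-type and CCAAT letters. A match is a description of the letters and not evidence of binding.

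Libraries held 11433625 to 32529806 estimated reads, and expression is given as CPM (counts per library size, scaled by edgeR's TMM factors to a common total) unless TPM (per transcript length) is named. Of 15 ILC2 markers, all but Il13, Hpgds, Areg and Thy1 were at 108 CPM or more in every library, with Gata3 between 554 and 1360 CPM and Il1rl1, the IL-33 receptor, between 167 and 336. The cytokine genes Il13 (7.1 to 36.3 CPM) and Areg (0.89 to 5.52 CPM) were low and both fell with time by edgeR's test, and Hpgds was at 3.42 to 10.6 CPM. Rag1 itself had reads in 0 of 6 WT libraries and 10.8 to 18.4 estimated reads, a trace at this depth, in 5 of 6 libraries labelled knockout. Whether the knockout allele keeps part of its transcript or labels were crossed was not tested. The genotype is therefore written as knockout-labelled, and the direction of every genotype difference rests on that label. Thy1, the gene of CD90, whose CD90.1 form marks the WT donors, separated the labels without overlap, at 2.96 to 5.7 CPM in the 6 WT and 16.8 to 37.8 CPM in the 6 knockout-labelled libraries. By edgeR's test Thy1 differed by 2.63 on the log2 scale (SE 0.25 and adjusted p = 0.000463), and it is named here after its values were seen. In a principal component analysis of all genes, 2 libraries lay far from the rest: WT replicate 2 of 8 weeks, along the component with 24.2% of the variance, and knockout-labelled replicate 3 of 8 weeks, along that with 17.3%. The latter also had 24.53% of its reads in its 10 most abundant genes, against 8.85% to 15.03% elsewhere. Both are 8-week libraries, so counts are given with and without them. Whether replicates are separate animals is not in the labels, and the p-values hold for the spread among these libraries.

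All 4 roles were well expressed. On the TPM scale, averaged over the 12 libraries, the level was highest for Rrm2 (879 TPM), the small subunit of ribonucleotide reductase, followed by Tyms, thymidylate synthase (381 TPM), and Pcna, the sliding clamp of the polymerases (272 TPM). The mitotic genes with the highest means were Top2a, the topoisomerase that untangles chromosomes, at 203 TPM and Birc5 (survivin, a part of the chromosomal passenger complex) at 194 TPM. Their order was not the same at both times, with means of 189 TPM for Top2a and 193 TPM for Birc5 at 8 weeks and of 218 and 195 TPM at 20 weeks, when Pcna was at 217 TPM. The lowest levels were those of E2f1 (6.95 TPM) and Cdt1, a licensing factor (7.76 TPM). Library ranges overlapped between neighbours in this order: Pcna at 205 to 385 TPM overlapped Tyms at 277 to 663 TPM and Top2a at 143 to 285 TPM. Mki67, the gene of the Ki-67 antigen, was at 8.42 to 32.9 TPM, and no library lacked it.

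**Figure D1:**
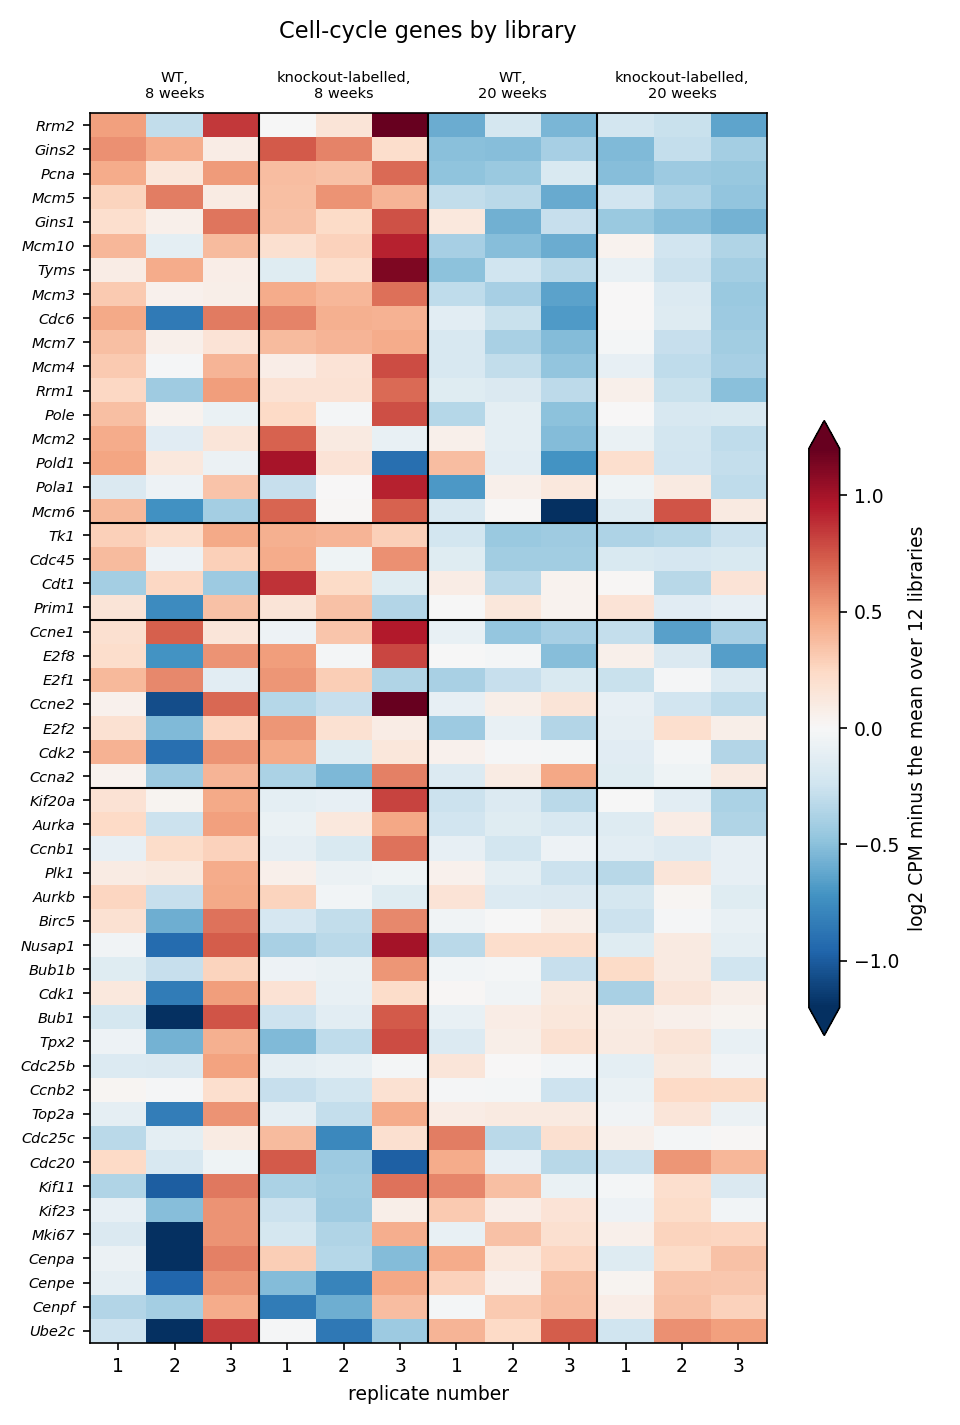
Each row is a gene and each column a library, grouped by genotype and time; colour is the log2 CPM minus that gene's mean over the 12 libraries, and the colour scale ends at 1.2 in either direction. From top to bottom the blocks are 17 replication, 4 other S-phase, 7 cyclin, kinase and E2F and 23 mitotic genes. The replication block is mostly red at 8 and blue at 20 weeks, while in the mitotic block replicate 2 of WT at 8 weeks is the lowest library and replicate 3 the highest.

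The question put to time was whether cell-cycle transcripts differed between cells taken 8 and 20 weeks after transplant. Of the 17 replication genes 7 fell, genes of the helicase and its partners and the clamp gene Pcna, while the polymerase genes did not pass, and none of the 23 mitotic genes was called. With the genotypes averaged, 9 of 51 members fell and none rose at 20 weeks by edgeR's quasi-likelihood test (Benjamini-Hochberg adjusted p under 0.05), where 2.9% of all 14431 tested genes were called in either direction and 1.93% were called lower. The 9 that fell were 7 replication genes (Gins2, Pcna, Mcm5, Mcm3, Mcm7, Gins1 and Mcm10), the thymidine kinase gene Tk1 and the cyclin E gene Ccne1. All 17 replication genes had a negative estimate, with a median log2 fold change (20 minus 8 weeks) of -0.61, against 0.01 over the 23 mitotic genes and 0.02 over all tested genes. At an unadjusted p under 0.05, 14 of 17 replication genes were lower, where 10.5% of all genes were. All 20-week libraries lay below all 8-week libraries for 6 of 17 replication genes and 0 of 23 mitotic genes, where this held for 2.47% of all genes. Since the members were listed with earlier results of these data known, these shares describe the list and do not test it. Leaving out single libraries gave 3 to 12 called members, while the calls over all genes ran from 77 to 927, against 419 with all libraries. Gins2, Pcna and Tk1 were called each time, and they alone remained without knockout-labelled replicate 2 or 3 of 20 weeks. In bulk RNA, fewer cells in S phase and less of these RNAs per cell cannot be told apart. The same holds for the time itself and a batch shared by the libraries of that time.

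**Figure D2:**
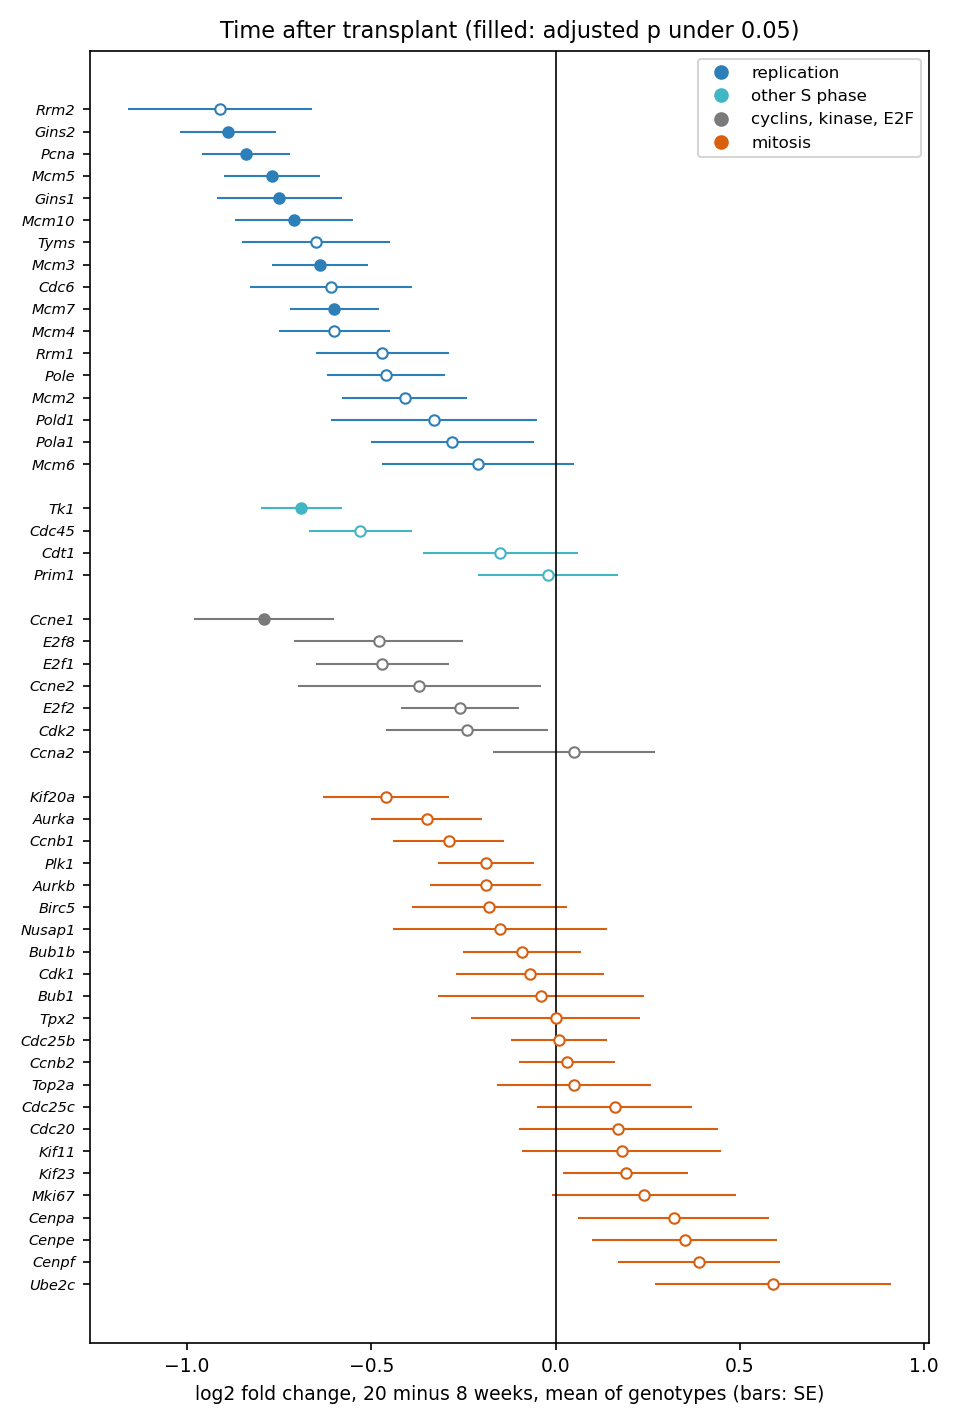
Points are the log2 fold changes of the 51 genes from 8 to 20 weeks, averaged over genotypes, with bars of 1 SE, by role; filled points have an edgeR adjusted p under 0.05. The 9 filled points all lie left of 0, 7 of them replication genes, and the mitotic genes lie on both sides, from -0.46 to 0.59.

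Among the helicase genes, the largest change was that of Gins2, which codes for a subunit of the GINS complex that activates the MCM ring. Gins2 was at 83.5, 77.1 and 60.5 CPM in WT and 95.1, 85.9 and 66 in knockout-labelled libraries at 8 weeks. At 20 weeks its level was 40.3, 40 and 43.3 CPM in WT and 39.5, 46.7 and 42.9 in knockout-labelled libraries. The lowest 8-week library (60.5 CPM) lay above the highest 20-week library (46.7 CPM). The log2 fold change was -0.89 (SE 0.13 and adjusted p = 0.00692). Gins1, another GINS subunit, was at 27.9, 25.2 and 37.9 CPM in WT and 31, 28.4 and 41.1 in knockout-labelled libraries at 8 weeks, and 26.5, 16.2 and 20 and 17.8, 17 and 16.3 at 20 weeks. Here the times met, since WT replicate 1 of 20 weeks (26.5 CPM) exceeded the lowest library of 8 weeks (25.2 CPM), and the log2 fold change was -0.75 (SE 0.17 and adjusted p = 0.0379). Cdc45, the partner of MCM and GINS in the active helicase, did not pass the adjusted threshold, at -0.53 (SE 0.14 and adjusted p = 0.0614), although its libraries did not overlap between times (51.5 to 78.6 against 40.3 to 48.6 CPM).

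The MCM genes code for the ring that is loaded on origins and unwinds DNA. Mcm5 was at 495, 631 and 440 CPM in WT and 528, 596 and 545 in knockout-labelled libraries at 8 weeks, and 335, 329 and 271 and 350, 319 and 297 at 20 weeks. No 20-week library reached the lowest 8-week value of 440 CPM, and the log2 fold change was -0.77 (SE 0.13 and adjusted p = 0.0134). Mcm3 was at 553, 461 and 466 CPM in WT and 603, 585 and 704 in knockout-labelled libraries at 8 weeks, and 360, 336 and 285 and 446, 395 and 326 at 20 weeks. Its times were apart by a narrow margin, 446 against 461 CPM, with a log2 fold change of -0.64 (SE 0.13 and adjusted p = 0.0258). Mcm7 was at 434, 354 and 378 CPM in WT and 440, 450 and 461 in knockout-labelled libraries at 8 weeks, and 296, 259 and 236 and 332, 279 and 253 at 20 weeks. Again the groups did not overlap, and the log2 fold change was -0.60 (SE 0.12 and adjusted p = 0.0258). Mcm4, at 363 to 631 CPM at 8 weeks and 264 to 342 CPM at 20 weeks, did not overlap either but stopped short of the threshold, at -0.60 (SE 0.15 and adjusted p = 0.0573). Mcm2 was at 203, 136 and 165 CPM in WT and 243, 161 and 140 in knockout-labelled libraries at 8 weeks, and 155, 137 and 104 and 141, 128 and 121 at 20 weeks. Its times overlapped and it did not pass, at -0.41 (SE 0.17 and adjusted p = 0.208). Mcm6 was at 228, 105 and 131 CPM in WT and 281, 175 and 284 in knockout-labelled libraries at 8 weeks, and 152, 175 and 75.6 and 156, 293 and 187 at 20 weeks. It ranged from 75.6 to 293 CPM with no order by time, and its difference was -0.21 (SE 0.26 and adjusted p = 0.721). Mcm10, which bridges the helicase to polymerase alpha, was at 77.6, 54.4 and 76.6 CPM in WT and 67.5, 71.6 and 112 in knockout-labelled libraries at 8 weeks, and 44.8, 41.3 and 39.1 and 60.7, 50.3 and 45.9 at 20 weeks. WT replicate 2 of 8 weeks (54.4 CPM) lay below knockout-labelled replicate 1 of 20 weeks (60.7 CPM), and the other 8-week libraries lay above every 20-week library. The log2 fold change of Mcm10 was -0.71 (SE 0.16 and adjusted p = 0.0386).

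Loading of the ring depends on Cdc6 and Cdt1. Cdc6 was at 198, 80.1 and 222 CPM in WT and 218, 194 and 193 in knockout-labelled libraries at 8 weeks, and 132, 120 and 90.4 and 145, 130 and 107 at 20 weeks. At 8 weeks, 5 of 6 libraries stood at 193 CPM or more, above all 20-week libraries, while WT replicate 2 stood at 80.1 CPM, below all of them; the log2 fold change was -0.61 (SE 0.22 and adjusted p = 0.156). Cdt1 was at 9.78, 15.4 and 9.56 CPM in WT and 23.6, 15.2 and 11.7 in knockout-labelled libraries at 8 weeks, and 13.8, 10.4 and 13.4 and 13.1, 10.3 and 14.5 at 20 weeks. It showed no separation by time, with a log2 fold change of -0.15 (SE 0.21 and adjusted p = 0.747).

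Pcna, the clamp that holds the polymerases on DNA, was at 395, 318 and 414 CPM in WT and 376, 370 and 465 in knockout-labelled libraries at 8 weeks. At 20 weeks it was at 208, 213 and 256 CPM in WT and 204, 214 and 212 in knockout-labelled libraries. All 6 libraries of 8 weeks lay above all 6 of 20 weeks, with a log2 fold change of -0.84 (SE 0.12 and adjusted p = 0.00692). The pseudogene Pcna-ps2 shares sequence with Pcna, and its estimated reads were 0% to 5.37% of the joint total at 8 weeks and 3.2% to 17.2% at 20 weeks. With pseudogene reads added, Pcna was at 318 to 467 CPM at 8 weeks and 219 to 267 CPM at 20 weeks, and it still fell, at -0.72 (SE 0.12, adjusted p = 0.0125 by edgeR). The polymerase genes were lower by less and none passed the threshold, with log2 fold changes of -0.46 (SE 0.16 and adjusted p = 0.138) for Pole, -0.33 (SE 0.28 and adjusted p = 0.58) for Pold1 and -0.28 (SE 0.22 and adjusted p = 0.54) for Pola1. Prim1, the primase subunit, was nearly level at -0.02 (SE 0.19 and adjusted p = 0.974).

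Of the genes of nucleotide supply Tk1 alone passed. Tk1, which salvages thymidine, was at 157, 149 and 177 CPM in WT and 173, 171 and 157 in knockout-labelled libraries at 8 weeks, and 111, 94.4 and 95.7 and 99.5, 102 and 108 at 20 weeks. The 8-week libraries (149 to 177 CPM) lay above the 20-week libraries (94.4 to 111 CPM), with a log2 fold change of -0.69 (SE 0.11 and adjusted p = 0.00831). Rrm2 was at 1720, 998 and 2200 CPM in WT and 1220, 1360 and 2990 in knockout-labelled libraries at 8 weeks, and 812, 1060 and 840 and 1050, 1020 and 788 at 20 weeks. Its estimate was the largest of all members, but 8-week libraries ran from 998 to 2990 CPM and WT replicate 2 of 8 weeks fell within the 20-week range, so that it missed the threshold at -0.91 (SE 0.25 and adjusted p = 0.0756). Tyms was at 436, 558 and 432 CPM in WT and 371, 473 and 890 in knockout-labelled libraries at 8 weeks, and 291, 347 and 328 and 386, 342 and 309 at 20 weeks. Knockout-labelled replicate 1 of 8 weeks (371 CPM) lay below replicate 1 of the knockout-labelled group of 20 weeks (386 CPM), and the difference was -0.65 (SE 0.20 and adjusted p = 0.101). Rrm1, the large reductase subunit, differed by -0.47 (SE 0.18 and adjusted p = 0.172).

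Of the 7 regulators, Ccne1 was the one that passed. This gene of cyclin E, which starts S phase with Cdk2, was at 21.6, 31 and 20.8 CPM in WT and 18.1, 23.7 and 36.5 in knockout-labelled libraries at 8 weeks, and 17.7, 13.7 and 14.3 and 15.5, 12 and 14.3 at 20 weeks. All 20-week libraries (12.0 to 17.7 CPM) lay below the lowest 8-week library (18.1 CPM), with a log2 fold change of -0.79 (SE 0.19 and adjusted p = 0.0491), just inside the threshold. The call of Ccne1 was kept in 5 of 23 alternatives, with adjusted p up to 0.146. It was lost with the replicate number as a block (adjusted p = 0.0824), with limma-voom (adjusted p = 0.0582) and on leaving out any single library but knockout-labelled replicate 1 or WT replicate 3 of 8 weeks. E2f1 was at 19.3, 22 and 13.5 CPM in WT and 21.3, 18.1 and 11.5 in knockout-labelled libraries at 8 weeks, and 11.3, 12.2 and 13 and 12.3, 14.6 and 13.2 at 20 weeks, with a log2 fold change of -0.47 (SE 0.18 and adjusted p = 0.187). For E2f2 the values were 104, 63.3 and 109 CPM in WT and 132, 104 and 97.4 in knockout-labelled libraries at 8 weeks, and 67.7, 85.7 and 71.4 and 84.8, 105 and 96 at 20 weeks, and the difference was -0.26 (SE 0.16 and adjusted p = 0.397). E2f8, a repressor of the E2F family, was at 43.9, 23 and 54.9 CPM in WT and 53.8, 37.2 and 66.2 in knockout-labelled libraries at 8 weeks, and 37.8, 37.3 and 26.6 and 39.5, 33.5 and 24 at 20 weeks, a difference of -0.48 (SE 0.23 and adjusted p = 0.285). The E2F genes thus had negative estimates and none passed. Ccne2, the other cyclin E gene, was at 74.6, 34.5 and 116 CPM in WT and 56.9, 59.5 and 195 in knockout-labelled libraries at 8 weeks, and 67.1, 75.6 and 80.1 and 67.4, 61.4 and 58.4 at 20 weeks. The 195 CPM of knockout-labelled replicate 3 was the highest of any library, and the difference was -0.37 (SE 0.33 and adjusted p = 0.594). Ccna2, the gene of cyclin A, which acts in S phase and G2, was at 21.9, 15.7 and 28.3 CPM in WT and 16.4, 14.7 and 32.4 in knockout-labelled libraries at 8 weeks, and 19, 22.8 and 29.3 and 19.2, 20.5 and 23 at 20 weeks and was level between times, at 0.05 (SE 0.22 and adjusted p = 0.939). Cdk2 differed by -0.24 (SE 0.22 and adjusted p = 0.596).

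**Figure D3:**
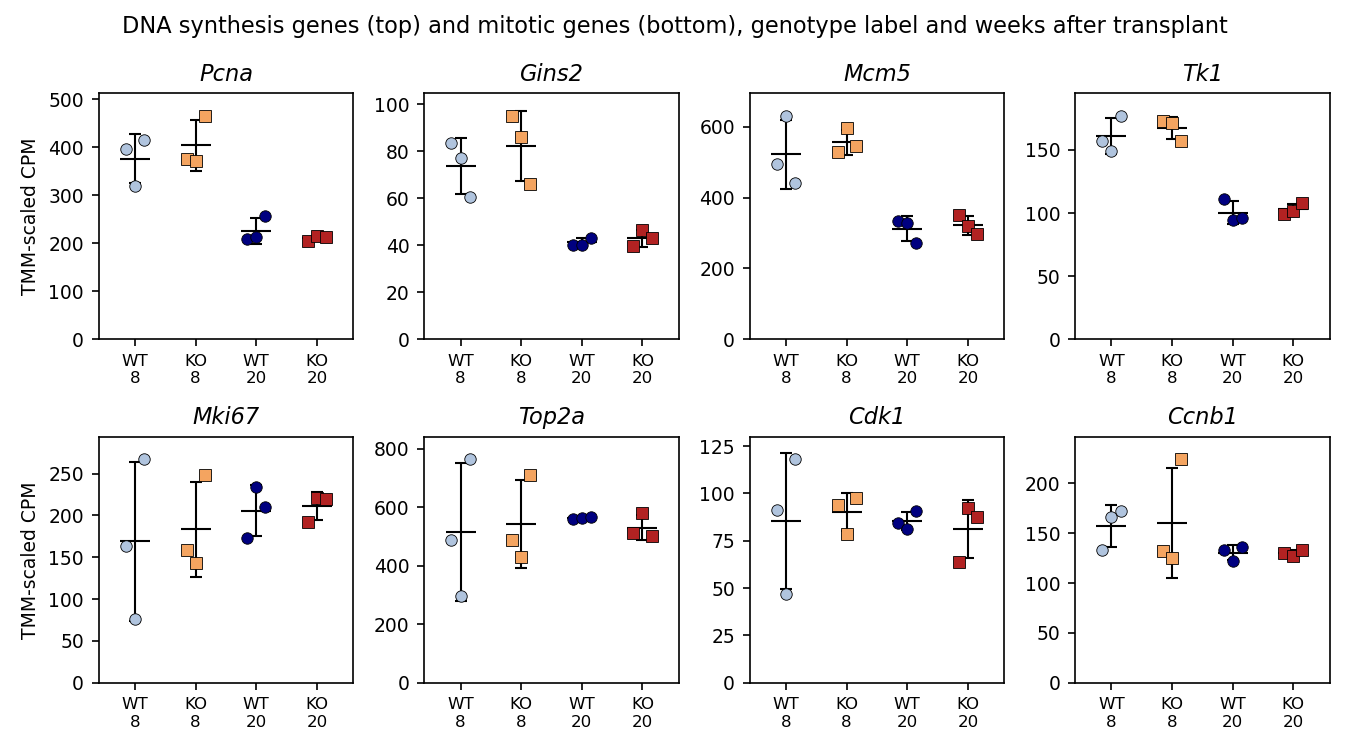
Each point is the TMM-scaled CPM of a library, with the mean and SD of the 3 libraries of a group as a line and bars; KO marks the knockout-labelled groups and 8 and 20 the weeks. In the top row Pcna, Gins2, Mcm5 and Tk1 are higher in every library of 8 weeks than in any of 20 weeks, and in the bottom row Mki67, Top2a, Cdk1 and Ccnb1 overlap between times, with the widest spread at 8 weeks.

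None of the 23 mitotic genes passed the test for time by edgeR, DESeq2 or limma-voom. An unadjusted edgeR p under 0.05 was found for 2 of 23, both lower at 20 weeks, where 10.5% of all genes were lower. Those were Kif20a, a kinesin of cytokinesis, at -0.46 (SE 0.17 and adjusted p = 0.176), and Aurka, the centrosomal Aurora kinase, at -0.35 (SE 0.15 and adjusted p = 0.252). Estimates were positive for 13 and negative for 10, from -0.46 to 0.59. Mki67 was at 163, 76.6 and 267 CPM in WT and 159, 143 and 248 in knockout-labelled libraries at 8 weeks, and 173, 234 and 210 and 192, 221 and 220 at 20 weeks. Its 8-week libraries ran from 76.6 to 267 CPM and enclosed all 20-week libraries, with a difference of 0.24 (SE 0.25 and adjusted p = 0.662). Top2a was at 488, 296 and 764 CPM in WT and 487, 429 and 712 in knockout-labelled libraries at 8 weeks, and 559, 564 and 566 and 511, 579 and 501 at 20 weeks. The 20-week libraries lay close together, between 501 and 579 CPM, inside an 8-week range of 296 to 764 CPM, and the difference was 0.05 (SE 0.21 and adjusted p = 0.935). Birc5 was at 174, 102 and 240 CPM in WT and 133, 125 and 229 in knockout-labelled libraries at 8 weeks, and 149, 153 and 161 and 128, 152 and 144 at 20 weeks, and its difference was -0.18 (SE 0.21 and adjusted p = 0.704).

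The kinases that start and drive mitosis, with their partners, overlapped between times. Cdk1 was at 91, 46.8 and 118 CPM in WT and 94.1, 78.5 and 97.4 in knockout-labelled libraries at 8 weeks, and 84.2, 81.4 and 90.6 and 63.7, 92.2 and 87.8 at 20 weeks, with a difference of -0.07 (SE 0.20 and adjusted p = 0.88). Its cyclin, Ccnb1, was at 133, 166 and 172 CPM in WT and 132, 125 and 224 in knockout-labelled libraries at 8 weeks, and 133, 122 and 136 and 130, 127 and 133 at 20 weeks, a difference of -0.29 (SE 0.15 and adjusted p = 0.344). Ccnb2, the other cyclin B gene, was at 189, 185 and 215 CPM in WT and 154, 160 and 212 in knockout-labelled libraries at 8 weeks, and 185, 183 and 157 and 176, 220 and 218 at 20 weeks, a difference of 0.03 (SE 0.13 and adjusted p = 0.937). Ccnb1 was thus raised in single 8-week libraries and Ccnb2 was nearly level. Plk1, the polo kinase, was at 64.9, 65.5 and 82.4 CPM in WT and 63, 57.8 and 58.4 in knockout-labelled libraries at 8 weeks, and 62.8, 56 and 50.7 and 48.2, 67.1 and 56.6 at 20 weeks, with a difference of -0.19 (SE 0.13 and adjusted p = 0.44). Aurkb, the kinase of the passenger complex, was at 85.4, 59 and 97.6 CPM in WT and 85.7, 69.6 and 64.7 in knockout-labelled libraries at 8 weeks, and 79.9, 63.7 and 63.2 and 61.9, 72.4 and 64.5 at 20 weeks, a difference of -0.19 (SE 0.15 and adjusted p = 0.537). The phosphatase gene Cdc25b, whose product activates Cdk1, was at 166, 165 and 259 CPM in WT and 172, 175 and 183 in knockout-labelled libraries at 8 weeks, and 205, 186 and 182 and 171, 201 and 180 at 20 weeks, a difference of 0.01 (SE 0.13 and adjusted p = 0.98). Cdc25c was at 13.3, 15.3 and 17.8 CPM in WT and 21.6, 9.74 and 19 in knockout-labelled libraries at 8 weeks, and 25.5, 13.3 and 19 and 17.4, 16.4 and 16.8 at 20 weeks, with a difference of 0.16 (SE 0.21 and adjusted p = 0.732). The SD over the 6 libraries of a time was wider at 8 than at 20 weeks for Cdk1 (23.8 against 10.4 CPM) and Ccnb1 (37.4 against 4.88 CPM), and alike for Ccnb2 (25.4 against 24.6 CPM), Plk1 (8.95 against 7.12 CPM) and Cdc25c (4.24 against 4.1 CPM).

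Among the mitotic genes the largest positive estimates were those of Ube2c, Cenpf, Cenpe and Cenpa. Mki67, given above, came next, and then Kif23, Kif11 and Cdc20. Ube2c, the ubiquitin-conjugating enzyme of the anaphase-promoting complex, was at 45.1, 19.4 and 96.3 CPM in WT and 53.3, 29.7 and 39.8 in knockout-labelled libraries at 8 weeks, and 71.2, 63.6 and 88.8 and 45.6, 78.4 and 75.8 at 20 weeks. Its 19.4 CPM in WT replicate 2 of 8 weeks and 96.3 CPM in replicate 3 are the lowest and the highest of all, and the difference was 0.59 (SE 0.32 and adjusted p = 0.343). Cenpf, a kinetochore protein, was at 51.8, 49.9 and 89.9 CPM in WT and 36.9, 44.1 and 85.5 in knockout-labelled libraries at 8 weeks, and 65.2, 82.5 and 85.6 and 69.7, 84.2 and 80.3 at 20 weeks, a difference of 0.39 (SE 0.22 and adjusted p = 0.37). Cenpe, the kinetochore motor, was at 93.6, 52.1 and 145 CPM in WT and 70.4, 58.1 and 139 in knockout-labelled libraries at 8 weeks, and 122, 105 and 129 and 103, 127 and 126 at 20 weeks, a difference of 0.35 (SE 0.25 and adjusted p = 0.493). In both, 4 libraries of 8 weeks lay below every 20-week library and the third replicates of 8 weeks lay above all or most of them. Cenpa, the centromeric histone, was at 85.1, 38.1 and 136 CPM in WT and 110, 70.7 and 62.2 in knockout-labelled libraries at 8 weeks, and 122, 97.9 and 107 and 80.1, 105 and 114 at 20 weeks, a difference of 0.32 (SE 0.26 and adjusted p = 0.557). Kif11, the spindle motor, was at 58, 37.5 and 115 CPM in WT and 57, 55.6 and 117 in knockout-labelled libraries at 8 weeks, and 112, 95.4 and 70.3 and 73.4, 85.3 and 65.8 at 20 weeks, a difference of 0.18 (SE 0.27 and adjusted p = 0.77). Kif23, a kinesin of the midzone, was at 66.5, 49.8 and 103 CPM in WT and 59.3, 52.9 and 74.6 in knockout-labelled libraries at 8 weeks, and 88.4, 75.1 and 79.4 and 68.1, 82.8 and 69.6 at 20 weeks, a difference of 0.19 (SE 0.17 and adjusted p = 0.599). Cdc20, the activator of the anaphase-promoting complex, was at 27.8, 20.5 and 22.7 CPM in WT and 39.1, 17.4 and 11.9 in knockout-labelled libraries at 8 weeks, and 32, 22 and 18.6 and 19.6, 34 and 30.9 at 20 weeks, a difference of 0.17 (SE 0.27 and adjusted p = 0.794). No member of this set passed. The remaining mitotic genes, Bub1, Bub1b, Tpx2 and Nusap1, had log2 fold changes between -0.15 and 0.00.

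Set against each other within a library, the 2 sets shifted with time, and the times overlapped on the first of the scales below. For each library the mean of the centred log2 CPM of the 17 replication genes minus that of the 23 mitotic genes was 0.38, 0.52 and -0.22 in WT and 0.46, 0.55 and 0.30 in knockout-labelled libraries at 8 weeks. At 20 weeks it was -0.35, -0.30 and -0.54 in WT and -0.04, -0.35 and -0.40 in knockout-labelled libraries. The group means were 0.23 ± 0.39, 0.44 ± 0.13, -0.40 ± 0.12 and -0.26 ± 0.20 (SD, n = 3 each, in the same order), a shift of -0.66 from 8 to 20 weeks. WT replicate 3 of 8 weeks is the exception at 8 weeks, since its mitotic genes were the highest of all (0.47) and its difference lay among those of 20 weeks. As a ratio of summed TPM, which weights the abundant genes, replication to mitosis was 2.31, 2.13 and 1.73 in WT and 2.16, 2.47 and 2.40 in knockout-labelled libraries at 8 weeks. The same ratio at 20 weeks was 1.24, 1.38 and 1.21 in WT and 1.63, 1.32 and 1.21 in knockout-labelled libraries, so the times did not overlap on this scale. No p is given for these scores, since the members were listed with results known.

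**Figure D4:**
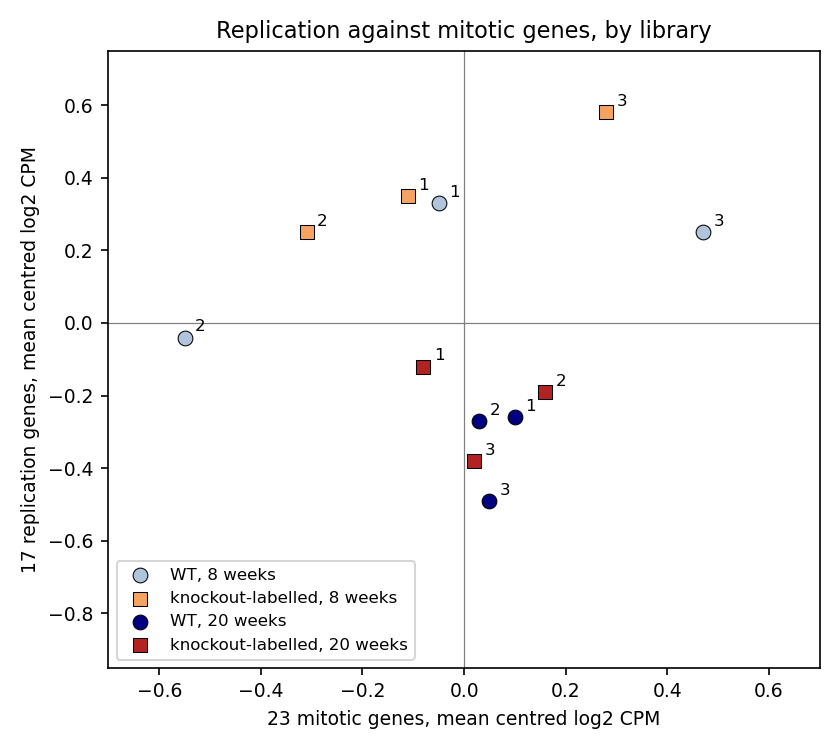
Each point is a library, labelled by replicate number; the axes are the mean centred log2 CPM of 23 mitotic genes (x) and of 17 replication genes (y). The 6 libraries of 20 weeks lie between -0.08 and 0.16 on the mitotic axis and at or below -0.12 on the replication axis, and the 8-week libraries spread from -0.55 to 0.47 on the mitotic axis with replication scores of -0.04 to 0.58.

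At 8 weeks the libraries spread more in the mitotic genes than at 20 weeks. Their score was -0.55 in WT replicate 2, 0.47 in WT replicate 3 and 0.28 in knockout-labelled replicate 3, and it was between -0.31 and -0.05 in the other 3 libraries of that time. The SD within a group was 0.51 and 0.30 for WT and knockout-labelled at 8 weeks, against 0.03 and 0.12 at 20 weeks. Without the pair of libraries that stood apart, 13 members fell, as 3.85% of all genes did, with Cdc45, Cdc6, Mcm4, Rrm1 and Rrm2 added and Ccne1 no longer passing, and the medians were -0.62 for replication and -0.01 for mitosis. With WT replicate 3 of 8 weeks left out as well, a choice made after its mitotic values were seen, 12 members fell (4.16% of all genes) and 2 mitotic genes, Cenpe and Cenpf, rose (3.53% of all genes) by edgeR's adjusted p, so the count of 0 among mitotic genes holds with those 3 libraries included. The mitotic median was then 0.20 and the replication median -0.65.

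Within each genotype alone, with 3 libraries a time, no member passed edgeR's test. In WT, where 0.513% of all genes were called, 13 of 51 members had an unadjusted p under 0.05, all lower at 20 weeks (7.29% of all genes), and the median over replication genes was -0.56. DESeq2 called 6 members in WT, all lower, where it called 2.05% of all genes lower, and limma-voom called none. Without the pair of libraries that stood apart edgeR called 6, all lower (0.634% of all genes). In knockout-labelled cells, where 0.0624% of all genes were called, 15 had an unadjusted p under 0.05, all lower (5.18% of all genes), and the replication median was -0.66. DESeq2 called 7 there, all lower (0.819% of all genes), and limma-voom none, and without the pair of libraries edgeR called 4, all lower (0.313%). Libraries of 20 weeks lay wholly below those of 8 weeks for 9 of 17 replication genes in WT, where 9.04% of all genes did so, and for 11 of 17 in knockout-labelled cells, against 8.12%. Pcna differed by -0.74 (SE 0.18 and adjusted p = 0.111) in WT and by -0.94 (SE 0.18 and adjusted p = 0.167) in knockout-labelled cells. For Gins2 the values were -0.84 (SE 0.19 and adjusted p = 0.0798) and -0.94 (SE 0.19 and adjusted p = 0.206), and for Tk1 -0.68 (SE 0.15 and adjusted p = 0.0764) and -0.69 (SE 0.15 and adjusted p = 0.215). The genotype by time interaction called 0 of 51 members, where 0.097% of all genes were called, with 0 at an unadjusted p under 0.05 (2.18% of all genes) and 0 by DESeq2 or limma-voom. Among its estimates, Gins1 had the smallest p of the negative ones, at -0.44 (SE 0.34 and adjusted p = 1), and Ccnb2 of the positive ones, at 0.39 (SE 0.25 and adjusted p = 1).

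The file headers record 8 threads for 6 libraries and 24 for the other 6, which may mark separate runs of the quantification. Within the 8-thread libraries (4 of 8 weeks, 2 of 20 weeks, the latter both WT) all 17 replication genes had lower means at 20 weeks, 9 of them without overlap, as 9.23% of all genes were, with a median log2 ratio of -0.60. Within the 24-thread libraries (2 of 8 weeks, 4 of 20 weeks) 16 of 17 were lower, 13 without overlap, as 9.81% of all genes were, with a median of -0.59. The mitotic medians were 0.07 and -0.15. With thread number as a covariate, Gins2, Pcna and Tk1 still fell and the other 6 members no longer passed.

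Genes of the same pathways outside the 51 were read from 5 lists of 174 genes in all. For time, 15 of 174 fell and none rose, where edgeR called 1.93% of all tested genes lower. In the list of licensing and fork genes 9 of 42 fell. Fen1, the flap nuclease of lagging-strand synthesis, was at 391, 413 and 293 CPM in WT and 318, 326 and 481 in knockout-labelled libraries at 8 weeks, and 206, 209 and 174 and 216, 233 and 192 at 20 weeks, a log2 fold change of -0.85 (SE 0.15 and adjusted p = 0.016). Rfc4, a subunit of the clamp loader that puts Pcna on DNA, was at 191, 103 and 175 CPM in WT and 147, 154 and 239 in knockout-labelled libraries at 8 weeks, and 82.6, 102 and 97.7 and 98.1, 90.9 and 86.2 at 20 weeks, a log2 fold change of -0.85 (SE 0.18 and adjusted p = 0.0304). Rfc2 and Rfc3, of the same loader, fell too, as did the DNA ligase gene Lig1, the single-strand binding gene Rpa2, the histone chaperones Asf1b and Chaf1b, and Gmnn (geminin), which restrains Cdt1. A single gene fell in each of the lists of chromosome and kinetochore (1 of 40), of spindle and cytokinesis (1 of 40) and of replication stress (1 of 20). They were the centromere gene Cenpw, the cohesion gene Cdca5 and the recombination gene Rad54l, in that order. A count of 1 in lists of this size cannot be told apart from the share of all genes. Of 34 genes of G1 control and its brakes 3 fell, among them Cks1b, a partner of Cdk kinases. The other pair are inhibitors. Cdkn1a, the gene of the Cdk inhibitor p21, was at 56.3, 85.8 and 55.6 CPM in WT and 46.3, 60.1 and 75.8 in knockout-labelled libraries at 8 weeks, and 18, 15.2 and 12.8 and 16.7, 17.3 and 18.3 at 20 weeks. Every 20-week library was below every 8-week library, and the log2 fold change of -1.95 (SE 0.17 and adjusted p = 0.000127) was larger than that of any member. It also passed in WT alone, at -2.10 (SE 0.24 and adjusted p = 0.00123), and in knockout-labelled cells alone, at -1.80 (SE 0.24 and adjusted p = 0.0157). Cdkn1c, the gene of the Cdk inhibitor p57, was at 7.38, 7.41 and 14.6 CPM in WT and 15.4, 14.4 and 46.2 in knockout-labelled libraries at 8 weeks, and 1.36, 5.92 and 3.53 and 3, 5.45 and 2.34 at 20 weeks. Its level was low at 20 weeks, with a log2 fold change of -2.13 (SE 0.42 and adjusted p = 0.0254). The positive estimates with the smallest p were those of Atr, the kinase that senses stalled forks, at 0.57 (SE 0.15 and adjusted p = 0.0609), and of Aspm, a spindle pole gene, at 0.62 (SE 0.19 and adjusted p = 0.103); neither passed.

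Markers of other cells were read beside the time difference, since dividing cells of other types express these genes too. Summed over 13 genes, B cell markers were at 7290 to 17800 CPM at 8 weeks and 5320 to 8580 CPM at 20 weeks. Nearly all of that sum is Cd74, an antigen-presentation gene that is not confined to B cells, at 7160 to 17600 and 5230 to 8470 CPM. Cd79b, at 112 to 191 and 67.0 to 103 CPM, fell, with a log2 fold change of -0.77 (SE 0.15 and adjusted p = 0.024). Of the defining markers, Cd79a was at 0.49 to 24.2 CPM at 8 weeks, highest in knockout-labelled replicate 2, and 0.72 to 2.74 CPM at 20 weeks, and Pax5 was at 0 in 10 of 12 libraries. The 8 germinal-centre B cell genes summed to 27.6 to 37.2 CPM at 8 weeks and 26.0 to 37.5 CPM at 20 weeks, with Mef2b at 0 in all 12. T cell markers summed to 184 to 342 and 187 to 242 CPM. Most of that sum was Lef1 (74.4 to 177 CPM), Bcl11b (39.7 to 111 CPM) and Cd3g (24.5 to 66.0 CPM). Lef1 was highest in the third replicates of 8 weeks, at 158 CPM in WT and 177 CPM in knockout-labelled cells. Cd3e was at most 3.75 CPM and Cd3d at most 4.78 CPM. NK cell markers summed to 296 to 570 and 299 to 399 CPM and were highest in the third replicates of 8 weeks, whose mitotic genes were also high, with Gzma at up to 226 CPM but Ncr1 at most 1.23 CPM. Plasma cell markers summed to 50.7 to 252 CPM at 8 weeks and 77.8 to 163 CPM at 20 weeks, with Igkc, an immunoglobulin light chain gene, at 2.2 to 170 and 2.67 to 51.9 CPM. Of that list Irf4, a factor that other lymphocytes also use, was the one called, and it rose, with a log2 fold change of 0.79 (SE 0.16 and adjusted p = 0.0256). The part of these cells in the time difference was not tested.

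Genotype was the study's own question, and no cell-cycle gene was called for it. Averaged over times, 0 of 51 members passed edgeR's test, where 0.222% of all genes did, and DESeq2 and limma-voom called none either. Unadjusted p-values under 0.05 were found for 2 members (3.71% of all genes), Mcm6 at 0.67 (SE 0.26 and adjusted p = 1) and Mcm3 at 0.30 (SE 0.13 and adjusted p = 1), both higher in knockout-labelled cells. For Mcm6 the means were 154 ± 64.9 and 247 ± 62.0 CPM (SD, n = 3 each) in WT and knockout-labelled libraries at 8 weeks and 134 ± 52.1 and 212 ± 71.9 CPM at 20 weeks, and the libraries overlapped at both times. At 8 weeks 0 of 51 were called (0.201% of all genes), with 0 at an unadjusted p under 0.05 (3.62% of all genes) and 0 by DESeq2 or limma-voom. All 17 replication estimates were positive there, with a median of 0.21 and a median SE of 0.24 for a single gene, against a median of 0.02 over all genes. Mcm3 and Mcm7 did not overlap between genotypes at 8 weeks (higher in knockout-labelled cells, as for 2.91% of all genes), and nor did Plk1 (lower, as for 2.72%). Their differences were 0.35 (SE 0.18 and adjusted p = 1), 0.21 (SE 0.17 and adjusted p = 1) and -0.25 (SE 0.18 and adjusted p = 1). At 20 weeks 0 of 51 were called (0.0554% of all genes), again with 0 at an unadjusted p under 0.05 (2.08% of all genes) and 0 by DESeq2 or limma-voom. Libraries did not overlap between genotypes at 20 weeks for Mcm10 (higher in knockout-labelled cells, as for 5.34% of all genes) and Cdk2 (lower, as for 6.08%). The replication median was 0.06 with 13 of 17 positive, and the mitotic median was -0.01 at both times. At 20 weeks all knockout-labelled libraries were run with 24 threads, while WT replicates 1 and 2 were run with 8. With thread number as a covariate the 20-week medians were 0.16 for replication and -0.14 for mitosis, and 0 members were called. Of the 174 other pathway genes, edgeR called 0 in each genotype contrast, with 2, 3 and 1 at an unadjusted p under 0.05 for the average, 8 and 20 weeks.

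**Figure D5:**
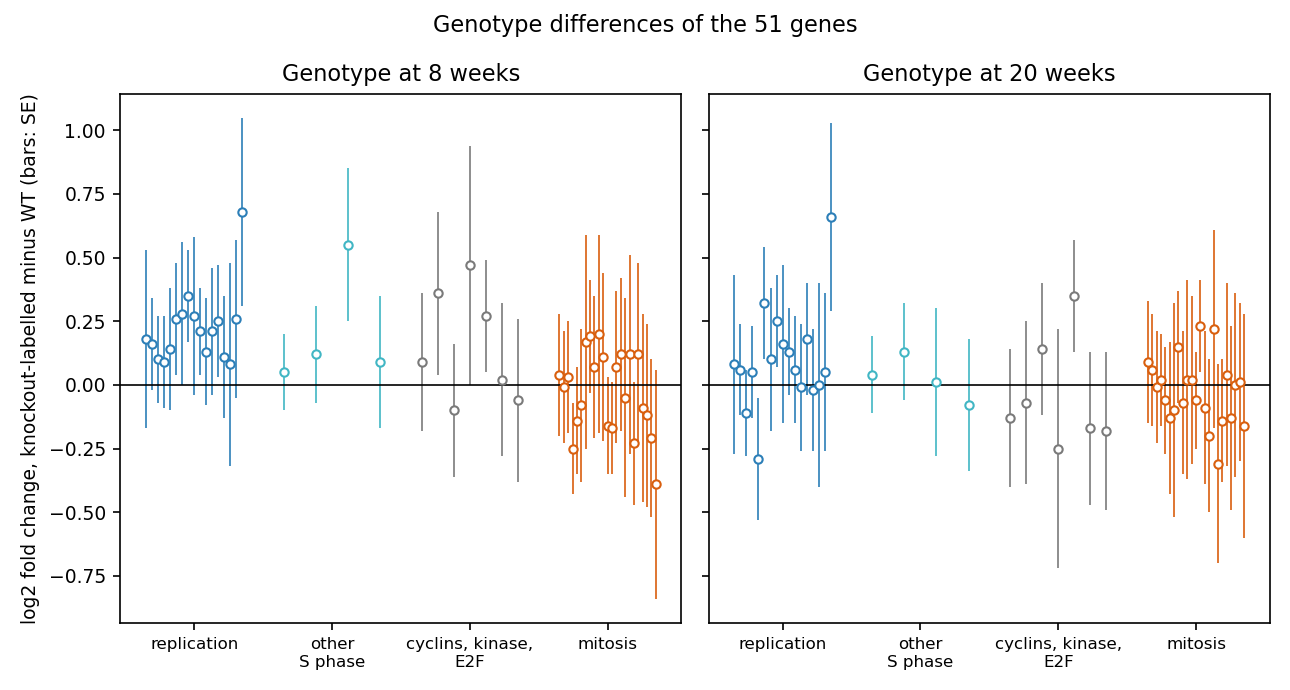
Points are log2 fold changes, knockout-labelled minus WT, of the 51 genes at 8 weeks (left) and 20 weeks (right) with bars of 1 SE, by role; no point has an edgeR adjusted p under 0.05. The 17 replication genes are all above 0 at 8 weeks (median 0.21) and lie on both sides at 20 weeks (median 0.06).

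The genotype values at 8 weeks depend on the libraries that stood apart. Without them, with 2 libraries a group at 8 weeks, the replication median moved from 0.21 to -0.03, with 10 of 17 negative, and the mitotic median from -0.01 to -0.42. Members at an unadjusted p under 0.05 then numbered 12, where 8.54% of all genes were under it, and 0 passed the adjusted threshold. For the average over times they numbered 11 (9.83% of all genes), with the mitotic median moving from -0.01 to -0.20. For the genotype by time interaction they numbered 9 (4.66% of all genes), with the mitotic median moving from -0.03 to 0.41, and 0 members passed the adjusted threshold in either. Same-numbered libraries deviated together at 8 weeks, and with the replicate number as a block within each time 0 members were called.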

How the data were processed

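RNA of 12 sorted ILC2 libraries was sequenced. Per the file headers, the authors ran sailfish 0.6.3 (k-mers of 20 bases, transcripts of Ensembl release 76), which gave each transcript an expected count (estimated number of reads) and a TPM. The deposited expected counts were not normalized, and the deposited TPM are scaled by length and to a fixed library sum. STAR 2.0.4b, featureCounts 1.4.5, Subread and bcl2fastq are named in the submitters' processing notes, without sailfish. Per the labels the molecule was polyA RNA, while their protocol removed ribosomal RNA and primed at random; the strand is not given in the sources used here. A k-mer method divides reads shared with paralogs or pseudogenes by its model. The later time is 20 weeks in the sample labels, which were followed, and differs in the series text.

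Of 86127 transcripts, 83739 (97.2%) matched GENCODE M21 (GRCm38) and were summed to 29542 genes, and the unmatched held 1.0% to 1.54% of reads. Rounded counts were filtered with filterByExpr, scaled by TMM and fitted for 14431 genes with edgeR 4.0.16 (R 4.3.3) on 4 group means, with 8 residual degrees of freedom, and p-values were adjusted over all genes. The common biological coefficient of variation was 0.377. Alternatives used DESeq2 1.42.0, limma 3.58.1, other scalings and filters, and left-out libraries. The fits were tested on simulated counts. All 51 members may be named. Library values are given for 16 set genes, for called members and for the 5 smallest p-values in each direction of each contrast. The other pathway genes that were called are named, with library values for all but Rfc2, Rfc3, Lig1 and Rpa2. Atr, Aspm, Rfc5 and Dut, which were not called, are given by their estimates. The members and lists were chosen with earlier results of these data known. Same-numbered libraries of one time deviated together at 8 weeks (r = 0.23, 0.16 and 0.11) and, weakly, at 20 weeks (0.07, 0.07 and 0.12). Differently numbered libraries of opposite genotype had r of -0.18 to 0.04 at 8 weeks and -0.11 to 0.05 at 20 weeks. Same-numbered libraries of different times had r of -0.11 to 0.20. Whether a shared number marks a shared host or shared processing was not tested. No 2 libraries held identical values.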

Additional observations from a re-analysis of the deposited data

How the results depend on the processing

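Gins2 and Pcna fell in all 23 alternatives, Tk1 in all but that of library totals, and no member changed direction among the 9 that were called. The shift of replication against mitotic genes stayed between -0.77 and -0.59 in all 20 alternatives. Genotype and interaction contrasts called 0 members in every alternative. The number of members called for time (9) was 3 with thread number as a covariate, 2 with library totals in place of TMM (Gins2 and Pcna), 14 without WT replicates 2 and 3 and knockout-labelled replicate 3 of 8 weeks, and 3 to 12 with single libraries left out; it dropped below 6 on leaving out any 20-week library, WT replicate 1 or knockout-labelled replicate 2 of 8 weeks. In WT (0) it was 6 with DESeq2, 6 without both libraries that stood apart and 0 to 3 with single libraries left out, and in knockout-labelled cells (0) it was 7, 4 and 0 to 1. Replication genes called (7) were 2 with the thread covariate, 11 without both libraries, 2 with library totals and 2 to 10 with single libraries left out, and mitotic genes called (0) were 2 without the 3 libraries of 8 weeks. Other pathway genes called (15) were 8 with no filter, 36 with DESeq2, 1 with the thread covariate, 33 without both libraries, 7 with library totals, 27 without the 3 libraries and 1 to 23 with single libraries left out. All genes called (419) were 1227 with DESeq2, 75 with the thread covariate, 983 without both libraries, 1238 without the 3 and 77 to 927 with single libraries left out. Library totals moved the median of all genes from 0.02 to 0.24 and the calls from 141 higher and 278 lower to 410 and 90. The replication median was then -0.39 and the mitotic median 0.26, with 3 mitotic estimates negative. Relative to the median of all genes, replication genes were at -0.63 and mitotic genes at 0.02. The TMM factors differed by time, at 0.756 to 0.991 for 8 weeks and 1.067 to 1.111 for 20 weeks. Whether mitotic genes are level between times thus depends on the scaling. Adding the replicate number as a block (replicate block) gave 7 members called for time and 0 for genotype. Same-numbered libraries deviated together at 8 weeks and, weakly, at 20 weeks, and the block moved none of these counts by more than 1.5 times. The settings of library totals, of the 3 libraries left out and of pseudogene reads were chosen after seeing the data. Both libraries that stood apart were themselves picked from the principal components of these data. For the shift of replication against mitotic genes, leaving them out was not planned in advance. The cause of these changes was not tested. Depth was not varied, so its part in the genotype contrasts was not tested.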

Other observations

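Single genes of the other pathway lists that fell with time are described here by library. Asf1b, a histone chaperone, was at 359, 370 and 420 CPM in WT and 340, 350 and 520 in knockout-labelled libraries at 8 weeks, and 246, 244 and 222 and 238, 261 and 237 at 20 weeks, and fell by edgeR's test with a log2 fold change of -0.70 (SE 0.13 and adjusted p = 0.0219). Chaf1b, a subunit of chromatin assembly factor 1, was at 95.3, 66 and 80.5 CPM in WT and 82.5, 85.8 and 108 in knockout-labelled libraries at 8 weeks, and 52.6, 62.7 and 44.8 and 56.7, 49.7 and 52.1 at 20 weeks, and fell, at -0.70 (SE 0.14 and adjusted p = 0.024). For both, every library of 20 weeks was below every library of 8 weeks. Gmnn, which blocks new licensing of origins, was at 119, 75.2 and 139 CPM in WT and 113, 90.6 and 138 in knockout-labelled libraries at 8 weeks, and 60.6, 70.3 and 79.1 and 65.7, 67.4 and 72.6 at 20 weeks, and fell, at -0.70 (SE 0.16 and adjusted p = 0.0439). Cdca5 (sororin), which protects cohesion, was at 52.3, 42.4 and 62.8 CPM in WT and 56.5, 46.1 and 50.9 in knockout-labelled libraries at 8 weeks, and 39.6, 31.4 and 29.4 and 28.4, 33.8 and 34.5 at 20 weeks, and fell, at -0.66 (SE 0.14 and adjusted p = 0.0322). Cenpw, a constitutive centromere gene, was at 28, 25.3 and 31.3 CPM in WT and 25, 23 and 25.5 in knockout-labelled libraries at 8 weeks, and 14.1, 14.1 and 22.4 and 12, 13.6 and 18 at 20 weeks, and fell, at -0.75 (SE 0.17 and adjusted p = 0.0362).

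Rad54l, of homologous recombination, was at 145, 117 and 129 CPM in WT and 112, 142 and 189 in knockout-labelled libraries at 8 weeks, and 93.4, 92.2 and 76.5 and 109, 91 and 81.4 at 20 weeks, and fell, at -0.62 (SE 0.15 and adjusted p = 0.0456). Cks1b was at 151, 168 and 196 CPM in WT and 166, 156 and 195 in knockout-labelled libraries at 8 weeks, and 125, 105 and 128 and 96.5, 114 and 138 at 20 weeks, and fell, at -0.55 (SE 0.13 and adjusted p = 0.0453). Among the other pathway genes, those nearest to a genotype difference over both times were Rfc5, a clamp loader subunit, at 0.59 (SE 0.22 and adjusted p = 1), and Dut, which removes dUTP, at 0.55 (SE 0.21 and adjusted p = 1). Neither passed edgeR's adjusted threshold.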
